A study of Homo sapiens with 14 samples.

Results

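Proteasome subunit genes were taken as the protein-coding genes whose symbols are PSMA, PSMB, PSMC or PSMD followed by digits, together with PSME1 to PSME4. PSMB8, PSMB9 and pseudogenes were left out. The rule gave 41 genes of the 24638 gene symbols listed in all 3 kinds of deposited table, namely 8 PSMA, 9 PSMB, 6 PSMC, 14 PSMD and 4 PSME genes. Poly(A) RNA was sequenced from IMR90, a human lung fibroblast line in wide use. Isolates I79 and I10 were each sampled young, while proliferating, and old, after passaging into replicative senescence. I79 ICM cells were treated with inflachromene (ICM), a small molecule that binds HMGB1 and HMGB2, and the labels of these samples give no dose or time. WT and HMGB2 KD cells were compared after knockdown of the chromatin protein HMGB2 with siRNA, and the labels name neither the isolate nor a control siRNA for WT. Each old or young group was deposited as 1 column, and WT, HMGB2 KD and I79 ICM as 2 libraries each.

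The proteasome degrades proteins that carry ubiquitin chains. Its 20S core is a barrel of stacked rings, with PSMA (alpha) subunits in the outer rings and PSMB (beta) subunits, some of them proteases, in the inner rings. The 19S cap binds substrates and unfolds them with a ring of PSMC ATPases, and its PSMD subunits form the lid and much of the base. PSME1 and PSME2 form the interferon-inducible activator PA28 alpha-beta, PSME3 the nuclear activator PA28 gamma, and PSME4 is PA200. PSMB10 replaces the catalytic subunit PSMB7 in the immunoproteasome. PSMA8 and PSMB11 are known from testis and thymus. Transcription of subunit genes is known to be raised by NFE2L1 when proteasome activity is low, and lower proteasome activity is a known feature of senescent fibroblasts.

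The library totals lay between 10971132 and 41168932 reads or counts, and those of the old and young columns between 14991385 and 20632959 estimated counts. All 10 fibroblast markers, among them the collagen COL1A1, were above 1 CPM (counts scaled to a fixed library size) in every column. All 4 epithelial and all 4 immune markers stayed under 1 CPM, and the 4 endothelial markers summed to at most 10.2 CPM. That sum was 0.73 and 7.32 CPM in young and old I79, and 0.42 and 2.44 CPM in young and old I10, and VWF, the 1 of the 4 that passed the filter on low counts, rose (log2 fold change 2.69, edgeR adjusted p = 0.013). The knockdown target HMGB2 was at 27.1 and 27.3 CPM in the WT libraries against 3.22 and 3.64 CPM after knockdown, with a log2 fold change of -2.99 (SE 0.17). The 5 proliferation markers summed to 816 CPM in I79 young and 916 in I10 young, to 108 and 216 in the old columns, to between 140 and 153 in WT and HMGB2 KD, and to 18.02 and 16.8 in I79 ICM. The part of the endothelial and proliferation markers in the differences below was not tested.

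TPM, the deposited transcript level per length, shows how much the subunits differed from each other. The 41 genes together held 0.611% of all TPM in I79 young and 0.408% in I79 old, with 0.5995% and 0.455% in I10. The summed TPM of the genes was thus 33.2% lower in the old column of I79 and 24.2% lower in that of I10. A median over single genes is another measure than a sum. The median log2 change in TPM of the 39 subunits tested was -0.71 in I79 and -0.45 in I10. That of all genes tested was -0.15 and -0.24, or 9.73% and 15.4% lower. By class, the alpha ring genes summed to 1512 TPM in I79 young and 866 in I79 old, and to 1474 and 979 in I10. The 19S ATPases summed to 766 and 479 TPM in I79 and to 782 and 527 in I10. In percent, the sum of the 4 activators was 20.2% lower in I79 old, at 336 against 421 TPM, and that of the beta ring 17.9% lower in I10 old, at 1379 against 1680 TPM, the smallest percent decreases among the classes of each isolate.

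Within the alpha ring of I79 young, levels ran from 99.8 TPM for PSMA5 to 317 TPM for PSMA7, a span of 3.18-fold that narrowed to 2.44-fold in I79 old. PSMA7 was also the highest and PSMA5 the lowest alpha subunit in both I10 columns. Protein-coding transcripts held 1.02% and 2.11% of the TPM of PSMA5 in young and old I79, and 1.18% and 0.40% in I10. ENST00000490870, with no coding region defined, held 76.5% in I79 young. The rank of PSMA5 and the spans thus rest on transcripts not listed as coding. In the beta ring PSMB4 was highest, at 360 and 284 TPM in young and old I79 and at 336 and 280 TPM in young and old I10. PSMB10 was the lowest expressed beta subunit, at 38.9, 43.5, 30.2 and 33.4 TPM in the same order. The immunoproteasome subunit thus stood at 0.161 times its constitutive counterpart PSMB7 in I79 young and 0.213 times in I79 old, and at 0.121 and 0.149 times in I10. Among the PSMD genes PSMD2, a large scaffold of the base, was highest in all 4 columns, between 238 and 332 TPM, and PSMD5, a chaperone of base assembly, was lowest, between 26.9 and 43.9 TPM. PSMA8 had no count in any library, which allows up to 0.206 CPM in I79 young, the shallowest of the old and young columns. PSMB11 had 1 count in I10 old, 1 in HMGB2 KD 2 and none elsewhere. The plot of TPM by gene shows the 4 columns side by side.

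**Figure D1:**
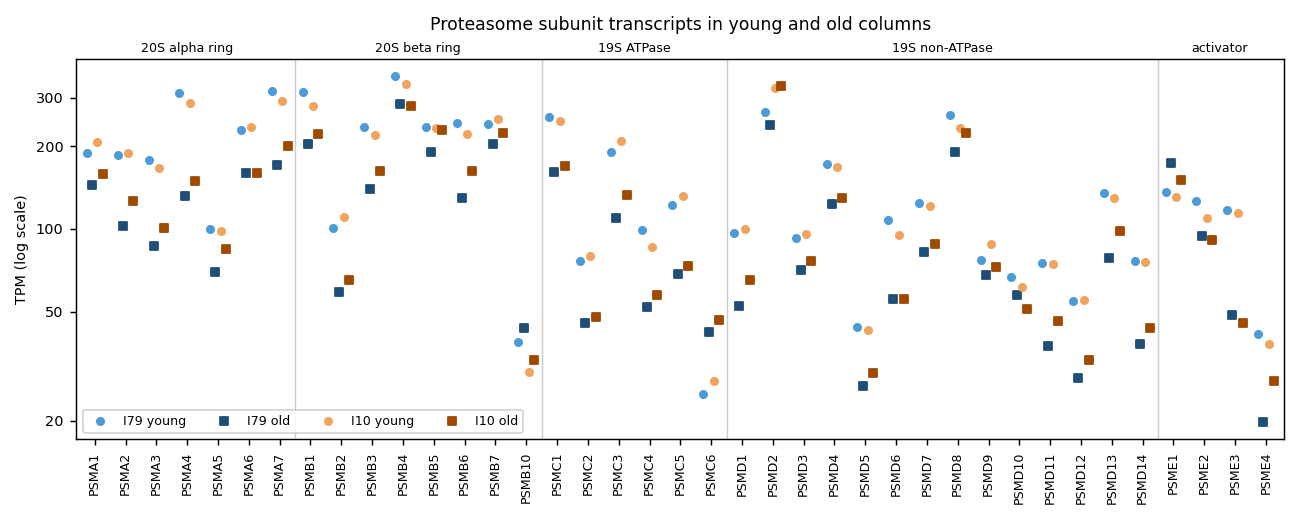
Deposited TPM summed per gene (log scale) for the 39 genes that passed the filter on low counts, by subunit class, in I79 young, I79 old, I10 young and I10 old, 1 point per deposited column and no error. Squares of the old columns lie below the circles of the young columns for most genes, with PSMC6, PSMB10 and PSME1 as genes whose old columns were higher in both isolates.

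The first comparison asked how subunit transcripts differ between old and young cells. Of the 41 genes, 39 passed the filter on low counts, and 34 of these had a lower fitted level in old cells, beside 50.6% of all genes tested. At an adjusted p under 0.05, 17 fell and 3 rose, beside a background of 15.4% of 15116 genes tested that fell and 16.6% that rose (edgeR's quasi-likelihood test with isolate as covariate, Benjamini-Hochberg adjustment over all genes). With DESeq2 13 fell and 1 rose, beside 1368 and 1808 of 15116 genes. With counts rebuilt from the deposited TPM 14 fell and 2 rose, beside 1856 and 2137 of 16190 genes. Some of the falls given below thus did not pass in these fits. In the main edgeR fit the median log2 fold change of the 39 genes was -0.39, and that of all genes tested was -0.01. At the stricter rule, an adjusted p under 0.01 with an absolute log2 fold change over 0.6, PSMC6 (summed over its matched transcripts alone) rose and PSME3 fell, beside a background of 9.57% of genes called. Each isolate gave 1 column per age, so the fit had 1 residual degree of freedom, and in bulk RNA fewer expressing cells and less RNA per cell cannot be told apart. Scaling by plain library totals moved the median of all genes to -0.22 and that of the subunits to -0.60. Such a change shifts all genes alike, so the distance between both, -0.38, could not move by much. With plain library totals the calls at the stricter rule over all genes were 1019 higher and 2111 lower in place of 869 and 578. Those over the subunits were 1 higher and 20 lower.

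PSME3 encodes the nuclear activator PA28 gamma and lies at chr17:40976402-40995777 (GRCh37, plus strand). It was at 125 CPM in both I79 young and I10 young, at 59.8 CPM in I79 old and at 62.7 CPM in I10 old, so both old columns lay near one level and far under both young columns. The log2 fold change was -1.03 (SE 0.097, edgeR adjusted p = 0.0053). Its 3 main protein-coding transcripts were all lower in old columns: ENST00000590720 went from 62.4 to 23.2 TPM in I79 and from 54.8 to 20.3 TPM in I10. Among the other activators PSME4 (PA200) fell by 0.62 on the log2 scale (SE 0.14, edgeR adjusted p = 0.031), from 127 CPM in both young columns to 71.0 CPM in I79 old and 96.4 in I10 old. PSME2 was at 52.2 and 46.4 CPM in I79 and at 45.8 and 45.1 CPM in I10, with an edgeR adjusted p of 0.53.

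PSME1, the alpha subunit of PA28, lies at chr14:24605372-24608176 (GRCh37, plus strand) and went the other way. It was at 69.8 CPM in I79 young and 95.8 in I79 old, and at 65.2 CPM in I10 young and 88.9 in I10 old, so the old column was higher in both isolates by nearly the same amount (0.45 on the log2 scale in each). The log2 fold change was 0.45 (SE 0.095, edgeR adjusted p = 0.027). Within a column, PSME1 stood at 1.17 times the TPM of PSME3 in I79 young and at 3.56 times in I79 old, and at 1.14 and 3.31 times in I10. Such a ratio shows unequal change of the activators.

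PSMB10, the immunoproteasome counterpart of PSMB7, lies at chr16:67968409-67970767 (GRCh37, minus strand). It was at 17.7 and 25.0 CPM in young and old I79, and 11.7 and 18.8 CPM in young and old I10, and rose by 0.59 on the log2 scale (SE 0.14, edgeR adjusted p = 0.037). Its protein-coding transcript ENST00000358514 was higher in old columns, at 19.6 and 29.5 TPM in I79 and at 9.53 and 19.2 TPM in I10. The retained-intron transcript ENST00000570985 was lower, at 18.04 and 13.8 TPM in I79 and 17.7 and 12.9 TPM in I10. The protein-coding share of the gene's TPM was thus 51.6% and 67.7% in I79, and 33.03% and 57.4% in I10. The rise of PSMB10 and that of PSME1 did not pass with plain library totals (edgeR adjusted p = 0.10 and 0.13) or with DESeq2 (adjusted p = 0.19 and 0.091). That of PSMB10 did not pass without the isolate covariate (edgeR adjusted p = 0.13) or with counts rebuilt from TPM, where its log2 fold change was 0.34 (edgeR adjusted p = 0.17).

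**Figure D2:**
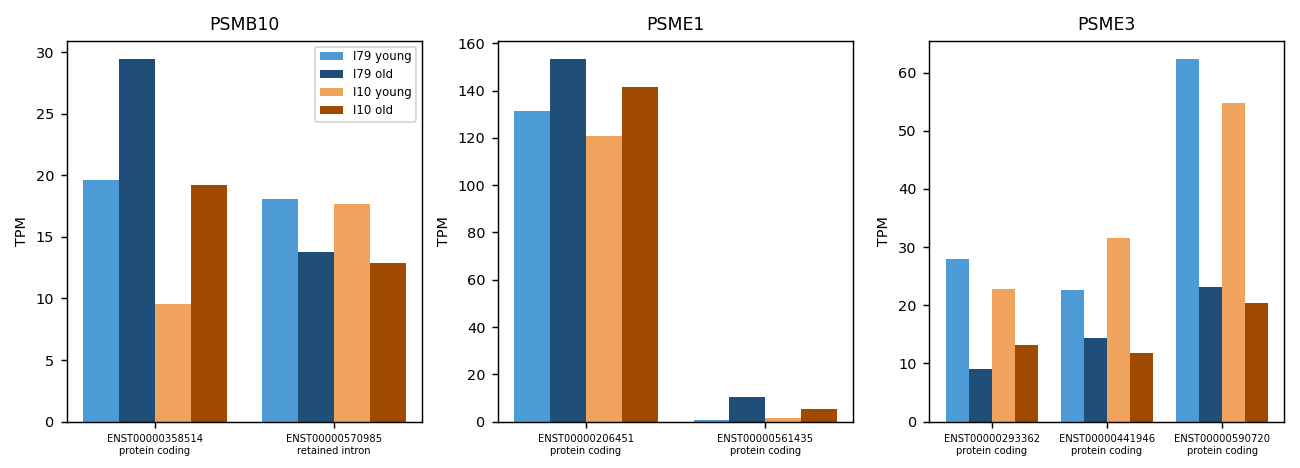
TPM of the transcripts of PSMB10, PSME1 and PSME3 that reached 9 TPM in at least 1 column, with bars for I79 young, I79 old, I10 young and I10 old (1 deposited column each, no error). The coding transcript of PSMB10 and both shown transcripts of PSME1 were higher in old columns, while the retained-intron transcript of PSMB10 and all 3 transcripts of PSME3 were lower.

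The 19S ATPases form the unfolding ring of the cap, and 5 of the 6 fell at an adjusted p under 0.05. PSMC3 was at 141 and 78.2 CPM in I79 young and old and at 136 and 99.5 CPM in I10, a log2 fold change of -0.65 (SE 0.13, edgeR adjusted p = 0.026). PSMC5 was at 100.05 and 60.9 CPM in I79 and 99.4 and 67.0 CPM in I10, a log2 fold change of -0.64 (SE 0.10, edgeR adjusted p = 0.013). Both old columns lay under both young columns for each of these genes. PSMC1, PSMC2 and PSMC4 fell by 0.42, 0.59 and 0.55 on the log2 scale, but did not pass with DESeq2 (adjusted p = 0.11, 0.11 and 0.064), and PSMC1 did not pass with counts rebuilt from TPM (edgeR adjusted p = 0.069). Reads of PSMC1 can be shared with 13 annotated pseudogenes, and PSMC2 overlaps DNAJC2, PMPCB and SLC26A5. The fall of PSMC2 is that of its matched transcripts, of which ENST00000425206 (656 bases) held 86.0% of the TPM in I79 young.

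The other ATPase, PSMC6, lies at chr14:53173896-53195308 (GRCh37, plus strand). It was at 15.4 and 29.5 CPM in young and old I79, and 19.8 and 38.0 CPM in young and old I10, with a log2 fold change of 0.94 (SE 0.12, edgeR adjusted p = 0.0092). The gene values of the old and young columns sum the transcripts whose IDs matched the annotation used, 97.67% of all IDs. Over the genes shared by all tables PSMC6 was at 17.6 CPM in I79 young, against 82.5 and 95.9 CPM in the WT libraries and 54.9 and 60.7 CPM in I79 ICM. PSMC2 was likewise at 38.3 CPM in I79 young, against 125 and 131 CPM in the WT libraries and 131 and 133 CPM in I79 ICM. The protein-coding transcript ENST00000612399 of PSMC6 was at 7.66 and 17.04 TPM in I79 young and old and at 14.2 and 27.0 TPM in I10. The rise is that of the matched transcripts. Whether they cover the gene's whole output was not tested, so the size and the direction of the change for the whole gene are uncertain. The same limit applies to the fall of PSMC2, which was also low in I79 young beside the other tables.

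All 7 expressed alpha subunits had a lower fitted level in old cells, and 4 of them fell at an adjusted p under 0.05. PSMA4 was at 140 and 68.7 CPM in young and old I79, and 130 and 79.6 CPM in young and old I10, a log2 fold change of -0.87 (SE 0.12, edgeR adjusted p = 0.010). PSMA3 fell by 0.69 (SE 0.14, edgeR adjusted p = 0.023), with 87.1 and 46.8 CPM in young and old I79 and 79.5 and 56.8 CPM in young and old I10. PSMA2 and PSMA7 fell by 0.55 and 0.54. For all 4 of these genes both old columns lay under both young columns. The fitted log2 fold changes of PSMA1, PSMA5 and PSMA6 were -0.20, -0.23 and -0.35 and did not pass.

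The beta ring showed the smallest median among the core and cap classes, -0.20 over 8 genes tested, against -0.54 for the alpha ring, -0.57 for the ATPases and -0.32 for the PSMD genes. Only PSMB2 fell at an adjusted p under 0.05, by 0.58 on the log2 scale (SE 0.11, edgeR adjusted p = 0.020), from 124 CPM in both young columns to 76.6 CPM in I79 old and 89.8 in I10 old. Of the 3 constitutive catalytic subunits, PSMB6 (caspase-like) was at 102 and 59.7 CPM in I79 and at 90.7 and 78.9 CPM in I10, with an edgeR adjusted p of 0.080. PSMB5 (chymotrypsin-like), the target of bortezomib, was at 139 and 126 CPM in I79 and at 132 and 159 CPM in I10. PSMB7 (trypsin-like) was at 119 and 110 CPM in I79 and at 120.0 and 126 CPM in I10. The columns of the isolates thus moved in opposite directions for PSMB5 and PSMB7, and neither passed (edgeR adjusted p = 0.75 and 0.91).

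Of the 14 PSMD genes, 5 fell at an adjusted p under 0.05. PSMD14, the deubiquitinase of the lid, lies at chr2:162164936-162268228 (GRCh37, plus strand). It was at 82.96 and 45.95 CPM in young and old I79, and 80.1 and 54.0 CPM in young and old I10, a log2 fold change of -0.71 (SE 0.12, edgeR adjusted p = 0.015). PSMD1, the large scaffold beside PSMD2, was at 178 and 101 CPM in I79 and at 174 and 125 CPM in I10, a log2 fold change of -0.65 (SE 0.12, edgeR adjusted p = 0.022). The lid subunits PSMD6, PSMD11 and PSMD12 fell by 0.57, 0.60 and 0.56. PSMD2 was at 286 and 246 CPM in I79 and at 304 and 363 CPM in I10, so the scaffold pair PSMD1 and PSMD2 had log2 fold changes of -0.65 and 0.02. The remaining 9 genes of the class, PSMD2 among them, did not pass, and their fitted log2 fold changes lay between -0.45 (PSMD13) and 0.02.

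The size of the change differed between the isolates. The median log2 change of the 39 genes was -0.51 in I79 and -0.22 in I10. Of the 39, 37 had a lower value in I79 than in I10, beside 49.1% of all genes tested. The median of that difference, I79 minus I10, was -0.22 for the subunits and 0.01 for all genes tested. In I79, 16 subunits were lower by more than 0.6 on the log2 scale and PSMC6 was higher, beside a background of 19.6% of genes lower and 21.6% higher. In I10, 3 were lower by more than 0.6 and 2 higher, beside 18.8% and 18.5%. Exact 95% counting intervals lay wholly below 0 for 35 genes in I79 and 28 in I10, and wholly above 0 for 3 and 6. The share of all genes with such intervals was not taken, so these counts have no background. These intervals cover counting error only, and with 1 column per group the difference between isolates was not tested. In young cells the isolates were close, with a median I10 minus I79 difference of -0.05, whereas PSMB10 had a difference of -0.59.

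**Figure D3:**
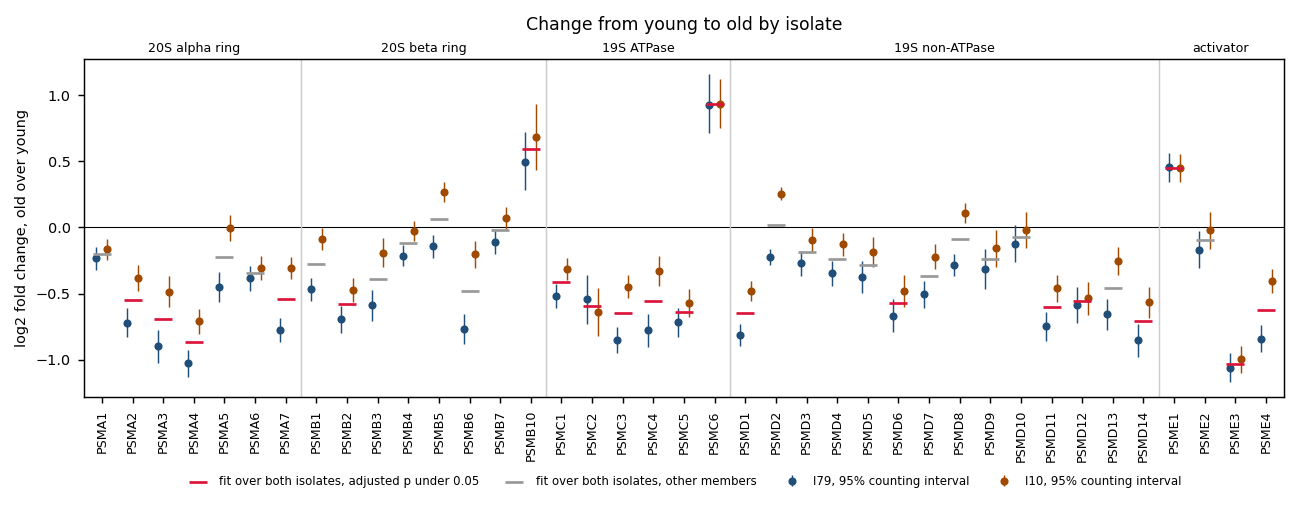
Log2 fold change of old over young for the 39 genes tested, by subunit class, as circles for I79 and I10 with exact 95% counting intervals and as dashes for the edgeR fit over both isolates (red where the adjusted p is under 0.05). Most I79 circles lie under their I10 neighbours, PSME3 lies near -1.03 in both, and PSMC6, PSMB10 and PSME1 lie above 0.

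Promoters of 36 of the 41 genes were listed in the RefSeq table used (GRCh38.p14, from 250 bases before to 50 after each start), with none for PSMA7, PSMB1, PSMB6, PSMB7 and PSMD4. The 250 bases before the start, 5′ to 3′ on the gene's strand, are shown for 3 genes that fell in old cells and for PSMB10 and PSME1, which rose. Capitals mark any match, on either strand, to CCAAT (the NF-Y box), TGACNNNGC (the core of the antioxidant response element, read by NFE2L1 and NFE2L2), GGGCGG (the GC box), CCGGAAG (an ETS site) or TATAAA.
PSME3 (chr17:42833147-42833396, plus strand): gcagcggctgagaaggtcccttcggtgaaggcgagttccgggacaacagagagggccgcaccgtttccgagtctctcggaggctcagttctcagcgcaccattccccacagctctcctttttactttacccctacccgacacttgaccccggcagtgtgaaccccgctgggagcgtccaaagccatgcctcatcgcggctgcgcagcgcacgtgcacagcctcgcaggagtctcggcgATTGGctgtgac
PSMD14 (chr2:161308175-161308424, plus strand): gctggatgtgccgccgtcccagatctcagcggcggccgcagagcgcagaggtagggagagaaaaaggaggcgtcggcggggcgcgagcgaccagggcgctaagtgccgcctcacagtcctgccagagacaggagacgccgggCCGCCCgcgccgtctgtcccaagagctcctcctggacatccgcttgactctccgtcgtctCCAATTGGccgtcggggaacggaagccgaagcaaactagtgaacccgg
PSMC5 (chr17:63827181-63827430, plus strand): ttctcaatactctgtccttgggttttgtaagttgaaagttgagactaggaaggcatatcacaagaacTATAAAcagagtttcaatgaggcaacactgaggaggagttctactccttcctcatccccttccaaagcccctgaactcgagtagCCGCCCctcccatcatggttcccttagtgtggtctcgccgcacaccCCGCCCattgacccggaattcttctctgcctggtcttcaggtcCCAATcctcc
PSMB10 (chr16:67936851-67937100, minus strand): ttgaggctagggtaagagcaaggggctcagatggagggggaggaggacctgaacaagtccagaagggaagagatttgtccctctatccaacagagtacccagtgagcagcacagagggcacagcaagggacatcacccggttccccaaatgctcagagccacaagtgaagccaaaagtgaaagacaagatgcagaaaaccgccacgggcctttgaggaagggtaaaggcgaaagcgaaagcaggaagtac
PSME1 (chr14:24135944-24136193, plus strand): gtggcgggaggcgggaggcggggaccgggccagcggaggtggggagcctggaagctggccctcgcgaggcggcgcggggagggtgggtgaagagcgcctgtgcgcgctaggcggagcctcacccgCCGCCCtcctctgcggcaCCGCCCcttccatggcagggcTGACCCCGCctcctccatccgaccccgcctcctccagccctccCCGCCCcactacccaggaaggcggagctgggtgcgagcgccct
PSME3 held 1 inverted CCAAT box, starting 12 bases before the start, and PSMD14 held CCAAT and its inverse in overlap, starting 48 and 45 bases before it, with 1 GC box. PSMC5 held a CCAAT box starting 10 bases before the start, 2 GC boxes and a TATAAA match far from the start. PSMB10 held none of the searched motifs in these bases. PSME1 held 3 GC boxes and 1 TGACNNNGC match, which starts 86 bases before the start.

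Over the whole windows, CCAAT was present in 17 of 36 subunit promoters (47.2%) and in 35.7% of all 27305 promoters, and GGGCGG in 23 (63.9%) and 44.6%. TGACNNNGC was present in 10 (27.8%) and in 13.6% of all promoters, and CCGGAAG in 12 (33.3%) and 10.7%. TATAAA was found in 5 and the NRF1 palindrome in 1, that of PSMA4. Of the 16 genes with a window that fell in old cells, 9 held CCAAT and 4 held TGACNNNGC, against 8 and 6 of the 20 others. These are matches of letters, given as a description.

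Genes that assemble, cap or regulate the proteasome were read from lists beside the subunits. Of the 7 assembly factors, PSMG1, a chaperone of alpha ring assembly, fell (log2 fold change -0.93, edgeR adjusted p = 0.012) and none rose. The maturation factor POMP was at 97.6 and 72.8 CPM in I79 and at 97.1 and 93.1 CPM in I10 (edgeR adjusted p = 0.20). Of 8 further cap subunits and bound factors only the deubiquitinase USP14 fell, by 0.46 on the log2 scale, and the inhibitor PSMF1 stood between 65.3 and 68.9 CPM in all 4 columns. Of 10 regulators, 4 rose at an adjusted p under 0.05 and NFE2L2 fell. NFE2L1, the activator of subunit genes, was at 240 and 438 CPM in I79 and at 246 and 391 CPM in I10, a log2 fold change of 0.77 (edgeR adjusted p = 0.013). BACH1, a repressor at antioxidant response elements, rose by 1.65 and its partners MAFK and MAFG by 1.57 and 0.52. The transcript of NFE2L1 thus rose in the columns in which 17 subunits fell.

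Ubiquitin itself and its carriers showed few changes. Among 6 ubiquitin and E1 genes, the E1 enzyme UBA1 fell by 0.53 and none rose. Among the 10 shuttles and VCP cofactors tested, UBQLN4, which carries ubiquitinated proteins to the cap, fell by 0.50. Of 12 cytosolic chaperones 5 fell, led by HSPH1 (log2 fold change -0.99, edgeR adjusted p = 0.0071), and the ubiquitin ligase STUB1 rose by 0.38. The 5 proliferation markers all fell, with a median log2 fold change of -2.21.

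The second comparison asked whether loss of HMGB2 changes subunit transcripts. No subunit passed an adjusted p under 0.05 among the 36 genes tested, beside a background of 10.9% of 15338 genes (edgeR's quasi-likelihood test on 2 against 2 libraries), and none passed the stricter rule, beside 5.2%. At an unadjusted p under 0.05 there were 3 of the 36 genes (PSMA2, PSME3 and PSMD5), all lower. The share of all genes at that unadjusted p was not taken, but it cannot be under the 10.9% that passed the adjusted one. DESeq2 called 1 subunit, PSME3, at an adjusted p under 0.05, beside 1775 of 13553 genes. The median log2 fold change was -0.09 for the subunits and 0.00 for all genes tested. Of the 36 subunits, 31 had a value under 0, beside 49.7% of all genes tested. Without WT replicate 1 the median of the subunits was -0.01. The SE of single genes had a median of 0.13, so changes well under 0.6 on the log2 scale could be missed. The titles do not say that the replicates were separate cultures, so p-values measure the spread between these libraries.

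PSME3 was at 146 and 136 CPM in the WT libraries against 111 and 106 CPM after knockdown, and the groups did not overlap. Its log2 fold change was -0.38 (SE 0.13, edgeR adjusted p = 0.075). PSMA2 was at 123 and 103 CPM in the WT libraries against 90.03 and 83.2 CPM after knockdown, with the same fold change of -0.38 (SE 0.13, edgeR adjusted p = 0.087). PSMD5 was at 63.0 and 63.1 CPM in the WT libraries against 56.2 and 47.5 CPM after knockdown (edgeR adjusted p = 0.20). These were the 3 smallest p-values among the subunits, and PSME3 and PSMA2 were among the genes that fell in old cells.

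The largest values above 0 were those of PSME4, PSMB6 and PSMD8, at 0.25, 0.22 and 0.13 on the log2 scale. PSME4 was at 98.2 and 112 CPM in the WT libraries against 133 and 118 CPM after knockdown (edgeR adjusted p = 0.27). PSMB6 was at 84.3 and 74.9 CPM in the WT libraries against 90.3 and 94.6 CPM after knockdown (edgeR adjusted p = 0.33). PSMB5 and PSMB7 overlapped between the groups, and PSMB10 lay between 34.1 and 37.5 CPM in all 4 libraries. Libraries of the groups did not overlap for 15 of the 36 genes, beside a background of 53.8% of all genes tested. The plot of CPM by library shows this overlap gene by gene.

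**Figure D4:**
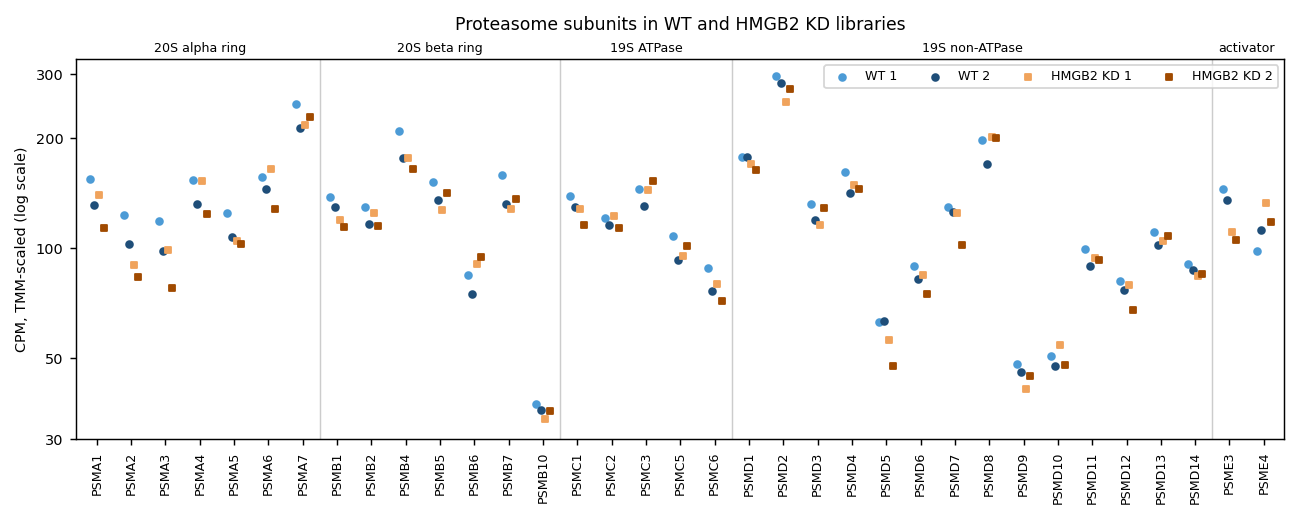
TMM-scaled CPM (log scale) of 35 subunit genes in the 2 WT libraries (circles) and the 2 HMGB2 KD libraries (squares), 1 point per library. PSME3 and PSMA2 are among the genes with both squares under both circles. Left out are PSMA8, PSMB3, PSMC4 and PSME1, listed at 0, PSMB11, with 1 count, and PSME2, under 1 CPM.

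The WT and HMGB2 KD tables list PSMB3, PSMC4 and PSME1 at 0 in all 4 libraries, and PSME2 at between 0.27 and 0.64 CPM. The same genes had at least 100 reads in every old, young and I79 ICM column, as did 143 genes listed at 0 in these 4 libraries among 8558 genes with such reads. No fold is given for them, and the log2 fold change of PSME2, -0.41 (SE 0.69), rests on few reads. PSMB3, PSMC4 and PSME1 are therefore not described in the knockdown. PSME2 stayed among the 36 genes tested and the 31 under 0, though no change is read from it. Of the other lists, the protease DDI2, which cuts NFE2L1 into its active form, fell (log2 fold change -0.68, edgeR adjusted p = 0.0038). NFE2L1 was at 299 and 284 CPM in the WT libraries against 348 and 421 CPM after knockdown (edgeR adjusted p = 0.099). POMP and PSMF1 had log2 fold changes of 0.31 and 0.24 (edgeR adjusted p = 0.17 and 0.27), and no assembly factor, cap factor, ubiquitin gene or shuttle passed an adjusted p under 0.05. HSPB1 was the chaperone that rose, by 0.81.

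The third comparison set I79 ICM beside I79 young. The tables were counted in different ways and 1 of the groups is a single column, so values are log2 ratios of CPM over shared genes, with no test. The median ratio of 39 subunits was 0.10, and that of all 13842 genes was -0.03. Past 0.6 on the log2 scale lay 8 subunits, 6 higher and 2 lower, beside a background of 59.3% of all genes. WT against I79 young by the same steps had 7 subunits past 0.6, beside 43% of genes, and a median of 0.00. Of these 7, 3 were higher (PSMB10, PSMC2 and PSMC6) and 4 were lower. The 4 lower ones were PSMB3, PSMC4, PSME1 and PSME2, which the WT libraries list at 0 or under 1 CPM. I10 young against I79 young, which come from 1 kind of table, had no subunit past 0.6, beside 8.17% of genes. Against the I79 old column the median ratio of I79 ICM was 0.79, with 28 subunits past 0.6, all higher, beside a background of 33.4% of genes higher and a median of all genes of 0.13. With TMM over shared genes, 21 subunits were past 0.6 and the median was 0.62, beside -0.04 for all genes. I79 old against I79 young without TMM had a median of -0.68 for the subunits and -0.16 for all genes. With TMM over shared genes the median of the subunits was -0.50. The median subunit of I79 ICM was thus closer to I79 young than to I79 old. The median of WT, also from another kind of table, was 0.00 against I79 young, so treatment and kind of table cannot be told apart here. In I79 ICM the proliferation markers summed to 18.02 and 16.8 CPM, under the 108 CPM of I79 old, and HMGB2 was at 4.43 and 5.93 CPM, under the 38.8 CPM of I79 old.

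The alpha subunits gave ratios to I79 young from -0.66 (PSMA1) to 0.19 (PSMA5). PSMA1 was at 104 and 91.4 CPM in I79 ICM, 154 in I79 young and 117 in I79 old. PSMA3 was at 115 and 110 CPM in I79 ICM, 99.2 in I79 young and 47.5 in I79 old. Of the alpha subunits PSMA1 was, on all reads, the single one under I79 old in both I79 ICM libraries.

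In the beta ring PSMB5 was at 255 and 251 CPM in I79 ICM, 159 in I79 young and 128 in I79 old, a ratio of 0.67 to I79 young. PSMB6 was at 129 and 138 CPM in I79 ICM, 116 in I79 young and 60.6 in I79 old. PSMB7 was at 139 and 137 CPM in I79 ICM, 135 in I79 young and 112 in I79 old. PSMB10 was at 44.1 and 44.2 CPM in I79 ICM, 20.1 in I79 young and 25.3 in I79 old, but it was also at 40.7 and 39.1 CPM in WT, so its ratio of 1.13 stands beside one of 0.98 for WT. PSMC2 and PSMC6 had ratios of 1.78 and 1.71 beside 1.74 and 2.33 for WT. These 3 genes were thus low in the I79 young column relative to both other kinds of table.

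Among the PSMC and PSMD genes PSMC3 was at 101 CPM in both I79 ICM libraries, 161 in I79 young and 79.4 in I79 old, a ratio of -0.67. PSMD3 and PSMD9 had ratios of 0.74 and 0.67, and PSMD3 was at 212 and 215 CPM in I79 ICM, 128 in I79 young and 94.3 in I79 old. PSMD14 was at 100.3 and 104 CPM in I79 ICM, 94.6 in I79 young and 46.6 in I79 old. PSMD1 was at 134 and 133 CPM, 203 and 103 CPM in the same order. On all reads the lid deubiquitinase thus lay near the young column, and PSMD1 between both.

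Of the activators, PSME3 was at 155 CPM in both I79 ICM libraries, 142 in I79 young and 60.7 in I79 old. PSME4 was at 127 and 128 CPM in I79 ICM, 145 in I79 young and 72.0 in I79 old. PSME1 was at 77.6 and 78.2 CPM in I79 ICM, 79.6 in I79 young and 97.2 in I79 old. PSME2 was at 82.3 and 87.05 CPM in I79 ICM, 59.5 in I79 young and 47.1 in I79 old. NFE2L1 was at 322 and 346 CPM, 274 and 444 CPM in the same order, and POMP at 184 and 172 CPM, 111 and 73.9 CPM.

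The I79 ICM reads are listed by transcript region, and the coding share of a subunit's reads bears on these ratios. PSME3 had 33% and 34.4% of its reads in the coding region in the 2 libraries, PSMB2 48.5% and 52.1%, and PSMD2 98.0% and 97.7%. Next, only the coding and noncoding reads of I79 ICM were kept, while the other columns kept all their reads. These ratios thus also depend on the share of a gene's I79 ICM reads outside the coding region. The median ratio of the subunits was then 0.42, with 15 genes higher and 1 lower past 0.6. The background was 62% of genes past it and a median of all genes of -0.16. The lower gene was PSME3, at -0.78 relative to I79 young and 0.45 relative to I79 old, which thus lay nearer to the old column on these reads and nearer to the young one on all reads. PSME1 was at 0.42 and 0.14 in the same order, above both columns. The ratios of I79 ICM and WT to I79 young are drawn together in the plot of levels relative to that column.

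**Figure D5:**
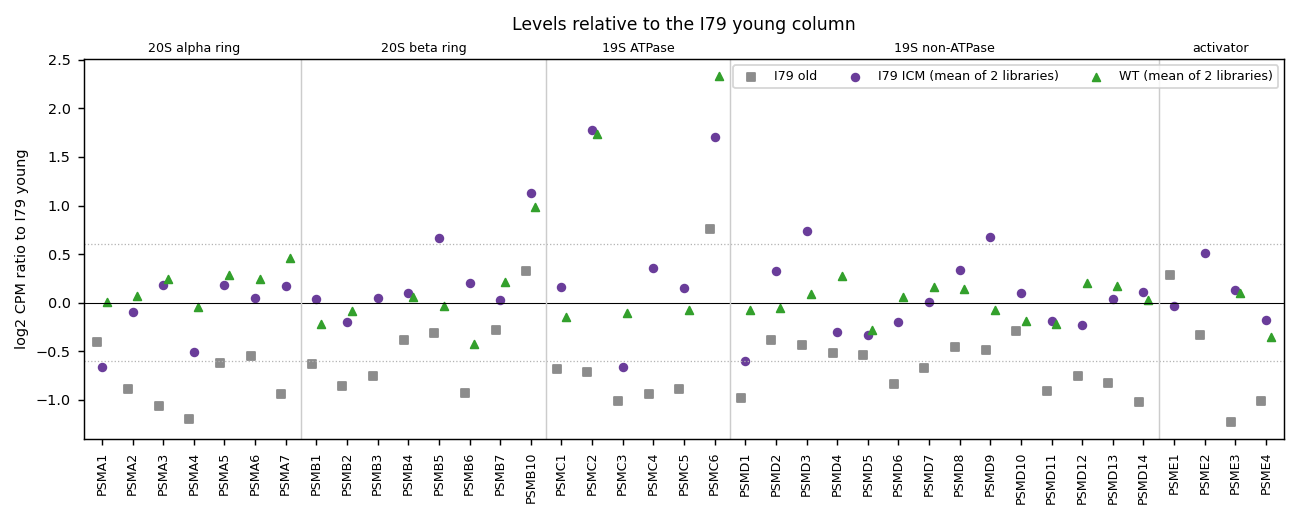
Log2 CPM ratio to the I79 young column over shared genes for I79 old (grey squares, 1 column), I79 ICM (circles, mean of 2 libraries) and WT (triangles, mean of 2 libraries), by subunit class, with dotted lines at 0.6 above and below 0. Most circles lie near 0 and above the squares, and the WT values of PSMB3, PSMC4, PSME1 and PSME2 are not drawn because these genes are listed at 0 or under 1 CPM there.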

How the data were processed

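Poly(A) RNA of IMR90 cells was compared between old and young columns of isolates I79 and I10, between HMGB2 KD and WT, and between I79 ICM and I79 young. Groups were taken from the sample titles. The authors deposited raw gene counts for the knockdown experiment, estimated counts and TPM per transcript for the old and young groups (1 column per group, treated as the authors' pooled value), and estimated counts per gene and region for I79 ICM. The submitters' processing notes name STAR 2.6.0c, featureCounts and GRCh37 for the series, and the counter of each file and the use of strand are not given in the sources used here. Summary rows of the WT and HMGB2 KD tables, 16.92% to 18.02% of their totals, were left out.

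Transcript counts were summed per gene through GENCODE v44 lifted to GRCh37, which matched 97.67% of IDs and 97.2% to 97.41% of reads, and were rounded. Genes passing filterByExpr were tested with edgeR 4.0.16 (R 4.3.3, TMM scaling, quasi-likelihood test), with isolate as covariate for old against young. Values across kinds of table are log2 CPM with a prior count of 2 over shared genes with a mean of at least 10 counts. Within isolates, exact Clopper-Pearson intervals of 95% were taken, which, like the limit of 3 counts used for a count of 0, reflect counting error alone. No replicate pair was a duplicate, with a chi-square per degree of freedom of 24.7 for WT, 37.6 for HMGB2 KD and 2.22 for I79 ICM. Alternatives were other scalings and filters, DESeq2 1.42.0, RUVs, a block for the replicate number, TPM-based counts and left-out replicates.

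The genes and lists were chosen with earlier results of these data known. Values were given to every subunit called at either threshold, to the 3 largest changes in each direction of each tested comparison, and to the catalytic subunits, PSMB10 and the activators. The result of a listed gene is not reported here.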

Additional observations from a re-analysis of the deposited data

Results flagged for a closer look

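For 4 subunits the change from young to old had opposite signs in the 2 isolates, with 1 column per group, and the difference was not tested. PSMB5, the chymotrypsin-like subunit, had a log2 change of -0.14 in I79 and 0.27 in I10. PSMB7, the trypsin-like subunit, had -0.11 in I79 and 0.071 in I10. The scaffold subunit PSMD2 had -0.22 in I79 and 0.26 in I10, and the lid subunit PSMD8 had -0.28 in I79 and 0.11 in I10.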

How the results depend on the processing

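In old against young, subunits called at the stricter rule numbered 2, beside 1447 of all 15116 genes tested. With plain library totals they numbered 21, beside 3130 of 15116 genes. Without a filter on low counts they numbered 11, beside 4251 of 28880 genes, and with DESeq2 6, beside 2144 of 15116. At an adjusted p under 0.05 they numbered 10 with the fold minimum and 20 without it, beside 3860 and 4839 of 15116 genes. With plain library totals 31 passed an adjusted p under 0.05, beside 6118 of 15116 genes. The median was then -0.60, and both values stand beside a shift of all genes by that scaling. With DESeq2 14 (13 lower, 1 higher) passed, beside 3176 of 15116 genes, and with counts rebuilt from TPM 16, beside 3993 of 16190. Without I79 the median was -0.22 and without I10 it was -0.51, with no test. PSMB5 turned to -0.15 with plain library totals and to -0.14 without I10 (0.27 without I79), and PSMB7 to 0.071 without I79 (-0.11 without I10). In HMGB2 KD against WT, 2 subunits (PSMA2 and PSME3) passed an adjusted p under 0.05 with plain library totals, beside 1785 of 15338 genes. With RUVs 2 passed, beside 2616 of 15338 genes, and with DESeq2 1, PSME3, beside 1775 of 13553. Same-numbered WT and HMGB2 KD libraries had deviations correlated at 0.124 across genes, and the labels give no more than a shared number. With the replicate number as a block, 1 subunit, PSME3, passed an adjusted p under 0.05 and 0 passed the stricter rule. The background was 2443 and 1243 of 15338 genes. Leaving out single libraries gave a median of -0.16 to -0.012, the latter without WT replicate 1, and 0 subunits called. PSME2, under 1 CPM, ranged from -0.92 to 0.33, the latter without WT replicate 1. For I79 ICM against I79 young, coding and noncoding reads only, a cut made in the I79 ICM libraries alone, gave a median of 0.42. With that cut 16 subunits were past 0.6. TMM gave a median of 0.11, and no filter on low counts gave 0.046. Leaving out single I79 ICM libraries gave 0.080 to 0.087, with 7 to 9 subunits past 0.6. Why these values moved was not tested.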
